A study of Saccharomyces cerevisiae with 30 samples.

Results

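The data described here are the 3 microarrays on which a newly made tetraploid budding yeast, ancestral 4 (anc4N-4), was set against a diploid at 36°C, out of 30 arrays in the series. All strains were of the W303 background of Saccharomyces cerevisiae. They descended from MATa and MATα haploids carrying ura3, ade2, his3, leu2 and trp1 mutations, a reporter cassette in place of CAN1 and a deletion of SPO11, a gene needed to start meiotic recombination. Tetraploid and diploid shared all of these. SPO11 was replaced by a kanMX6 or a cloNAT drug marker, and evolving lines alternated between these markers. Which marker ancestral 4 or the diploid carried is not stated. Diploids were converted to a/a or α/α with a galactose-driven HO endonuclease, and the tetraploid ancestors came from crosses of such diploids. Ancestral 4 is 1 such clone and had not gone through the evolution experiment, whereas evolved 4 is 1 clone taken from the same line after 1000 generations. The other groups used for comparison were evolved 4 over the diploid, evolved 4 over ancestral 4, and 7 further lines in which an evolved tetraploid was set against its own ancestor, with 3 arrays in each. Ancestral 4 and the diploid were grown to log phase in rich medium at 36°C, without a drug or other treatment. Ancestral RNA was labelled with Alexa Fluor 647 and diploid RNA with Alexa Fluor 555 on every array. The 3 arrays were technical replicates of this pair, so every error given below covers technical variation and not that between tetraploid clones or cultures. With 0 arrays dye-swapped, a gene-specific dye effect and a difference between tetraploid and diploid cannot be told apart.

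A tetraploid cell holds more copies of each chromosome than a diploid, is larger, and has a smaller surface for its volume. Tetraploid yeast is known for unstable chromosome numbers and for sensitivity to defects of the spindle, of chromatid cohesion and of recombination. Growth at 36°C is above the optimum of yeast and induces heat shock proteins, chaperones that hold or refold damaged proteins, while genes for ribosomes are transiently turned down after a shift to heat. These points are background to the comparison, which asked how ploidy alters expression at high temperature. A two-colour ratio normalized within an array is relative to the average transcript, so a change of total RNA per cell that touched all genes alike would leave no trace here.

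Gene names could not be attached to the values. The identifiers beside the 6377 rows were systematic names, 5840 of them found among the locus tags of R64, but rows listed as members of a co-regulated family did not vary together. Over all 30 arrays the mean pairwise correlation was −0.0030 for the 123 complete rows listed as ribosomal proteins and 0.00020 for 95 rows listed as ribosome biogenesis factors, beside 0.0018 for all 5701 complete rows. Rows listed as chaperones and heat shock proteins reached 0.025, proteasome subunits −0.00033 and histones −0.024. Other orders of the names were also tried after these results were seen. Among 2420 pairs of orderings the best gave the ribosomal protein rows 0.036, and 966 shifts of up to 80 rows gave at most 0.027. Single chromosomes were tried only for rows listed on II, IV and VII. The highest of 2898 such values was 0.389, over 10 rows listed on chromosome II. It was picked as a maximum over many trials and was not used. Whether it marks a partial order of the names was not tested. Rows are therefore called by their number in the deposited table, and no gene is assigned to a ratio. Listed names serve below only to delimit sets of rows, by arm, strand letter or gene list.

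The expression difference between ancestral 4 and the diploid was broad and mostly small. Of 6145 rows with values on at least 2 of the 3 arrays, 81.8% lay within 1.5-fold of equal expression and 46.8% within 1.2-fold. The mean log2 ratio had a median of −0.029 and an interquartile range from −0.32 to 0.25, and its SD over rows was 0.46. Slightly fewer rows lay above 0 than below, 2892 against 3253. The rows reached further down than up. At 3-fold or more there were 3 higher rows and 17 lower, counting 12 lower rows between 3-fold and 4-fold and 5 past it. Between 2-fold and 3-fold, 74 rows were higher and 115 lower, and between 1.5-fold and 2-fold 424 were higher and 485 lower. No row was 4-fold higher in the tetraploid.

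**Figure D1:**
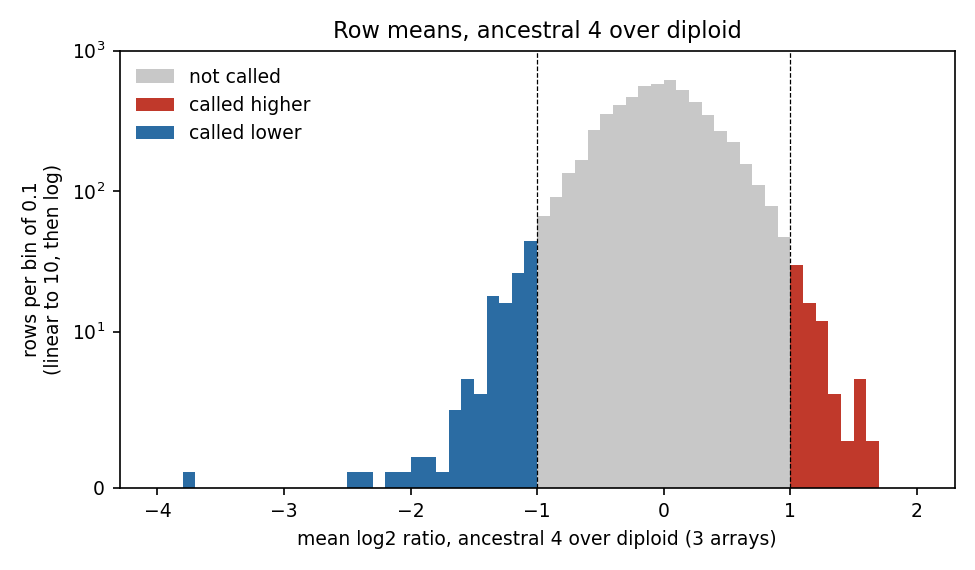
Mean log2 ratio of ancestral 4 over diploid for 6145 rows (x axis) against the number of rows per bin of 0.1 (y axis, linear to 10 and logarithmic above), with the rows called higher in red, those called lower in blue and dashed lines at 2-fold. The lower tail reaches −3.72 and the higher tail stops at 1.68.

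The 3 arrays resembled each other, though less closely than those of the other line 4 groups. The median absolute log2 ratio was 0.279 on array 1, 0.311 on array 2 and 0.307 on array 3, a mean of 0.299 ± 0.018 (SD, n = 3). Pearson correlations over rows between the arrays lay between 0.771 and 0.795, and describe the arrays only, since rows are not independent replicates. They were 0.921 to 0.936 in evolved 4 over ancestral 4 and 0.827 to 0.847 in evolved 4 over diploid. Ranges in the 7 other lines lay above, across and below that of ancestral 4 over diploid. The median SD of a row over the 3 arrays was 0.129, under the median size of a ratio. It was 0.085 in evolved 4 over ancestral 4 and 0.106 in evolved 4 over diploid. Of 6053 rows with 3 values, 4491 (74.2%) had the same sign on all arrays, 2099 of them higher and 2392 lower. At least 2-fold higher were 94, 104 and 125 rows on arrays 1, 2 and 3, and 36 rows were past 2-fold on all 3. At least 2-fold lower were 124, 196 and 184 rows, and 52 were past it on all 3. Of the rows past 2-fold on any array, 143 of 215 higher rows and 222 of 337 lower rows were past it on a single array.

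Set beside the other groups, these ratios were large. In the evolved clone over the same diploid, the median absolute log2 ratio was 0.229 ± 0.0076 (SD, n = 3), and the 3 arrays of that group did not overlap the 3 of ancestral 4 over diploid. In evolved 4 over ancestral 4 it was 0.321 ± 0.025 (SD, n = 3), which overlapped. The 7 other lines, each an evolved tetraploid over its ancestor, lay between 0.132 and 0.207. The comparisons within line 4 share clones, and whether they also share cultures is not known here. The diploid comparisons are the ones in the series whose cultures differed in ploidy by design.

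**Figure D2:**
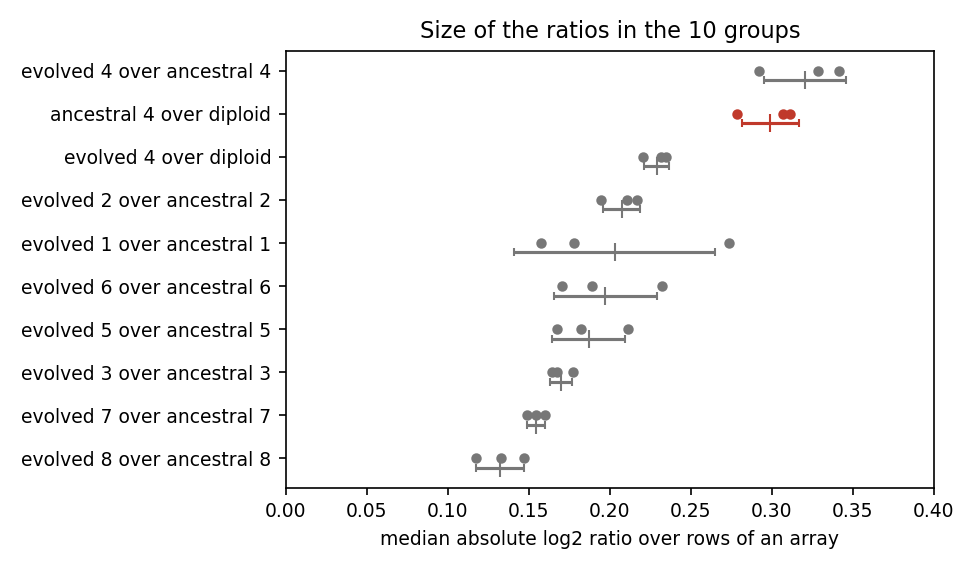
Median absolute log2 ratio over the rows of each array (points), with the mean and SD of the 3 arrays (bar below), for the 10 groups of the series. Ancestral 4 over diploid (red) lies at 0.299, second to evolved 4 over ancestral 4 at 0.321.

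Calls were made for rows with a mean ratio of at least 2-fold and an adjusted p under 0.05 in limma (Benjamini-Hochberg). Of 6145 rows, 209 (3.4%) were called, 77 higher in ancestral 4 (1.25%) and 132 lower (2.15%). Thus 36.8% of calls were higher (95% Wilson interval 30.6% to 43.6%, counting error only). The interval takes rows as independent, which they are not, and leaves out the choice of normalization and test. The called rows had a median log2 ratio of 1.13 when higher and −1.18 when lower. Of calls with 3 values, 75 of 75 higher and 115 of 116 lower had one sign on all arrays. The exception, row 5946, read −0.34, 0.28 and −3.65. Among calls with 2 values, row 1197 read 0.49 and −3.25 on arrays 1 and 2, and row 4976 read 2.72 and −0.41. With values on all 3 arrays required, 191 of 6053 rows were called, 75 higher and 116 lower. Some rows lay close to the limit on either side. Rows 1720 and 2054 lay just inside, at 1.0006 and −1.006, and rows 2194 and 2747 just outside, at 0.998 and −0.998. With no fold minimum 4011 rows (65.3%) passed the adjusted p, 1822 higher and 2189 lower, with median log2 ratios of 0.41 and −0.43. The count and the balance depended on the spread imposed on the arrays and on the test. Quantile normalization, which forces the same spread on all 30 arrays, left 50 calls, 31 higher and 19 lower, and the methods' t-test (an unadjusted p under 0.005 and at least 2-fold) gave 58, 31 higher and 27 lower.

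The arrays contributed unequally to the lower calls. Among 116 lower calls with 3 values, array 2 held the most extreme value in 79, array 3 in 28 and array 1 in 9. Among 75 higher calls, array 3 held it in 37, array 2 in 26 and array 1 in 12. Over all complete rows with a mean below 0, array 2 was the most extreme in 41.2%, so the lower calls leaned further to that array than rows in general. The median of the lower calls was −1.07, −1.31 and −1.13 on arrays 1, 2 and 3. Without array 2, 205 rows were called, of which 161 were among the 209.

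The highest rows combined steady and variable members. Row 2783 read 1.79, 1.61 and 1.65 on arrays 1 to 3, a mean of 1.68 ± 0.091 (SD, n = 3) or 3.21-fold, with an adjusted p in limma of 2.58e-15. Row 2185 read 1.73, 1.44 and 1.79, a mean of 1.65 ± 0.19 (SD, n = 3), with the same adjusted p. Both p-values came from a fit that shared the spread over all groups. With these 3 arrays fitted alone the adjusted p in limma was 0.0014 for each row. In both rows the 3 arrays stayed well past 2-fold. Row 4406 had nearly the same mean as row 2783, 1.68 ± 0.50 (SD, n = 3), but spread from 1.15 on array 1 to 1.76 and 2.14 on arrays 2 and 3. Its adjusted p in limma was 1.09e-05, and 0.0021 with these 3 arrays fitted alone. Rows 6314, 2627 and 5143 followed with means of 1.55, 1.54 and 1.53. The other 4 of the 10 highest, rows 62, 80, 79 and 69, had means from 1.51 to 1.58 and lay close together near the top of the table, among a set described below. All 10 were past 2-fold on each of the 3 arrays.

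The lowest row stood apart from the rest. Row 4605 read −4.0, −3.54 and −3.62, a mean of −3.72 ± 0.25 (SD, n = 3) or 13.2-fold lower in ancestral 4 than in the diploid. Its adjusted p in limma was 2.00e-10, and 8.5e-04 with these 3 arrays fitted alone. The second, row 2371, rested on a single array. It read −0.91, −0.63 and −5.73, a mean of −2.42 ± 2.86 (SD, n = 3), and without array 3 it had a mean of −0.77, under the fold minimum. Its adjusted p in limma was 1.68e-04 when the spread was shared over all groups and 0.092 when these 3 arrays were fitted alone. The value of −5.73 was the lowest above the floor at −6.64 on any array of the series.

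The remaining 8 of the 10 lowest rows shared a pattern over the arrays. Row 4345 read −1.91, −2.46 and −2.12, a mean of −2.16 ± 0.28 (SD, n = 3). Its adjusted p in limma was 3.94e-15 with the spread shared over all groups and 0.0014 with these 3 arrays fitted alone. Row 5008 read −1.65, −2.80 and −1.55, a mean of −2.00 ± 0.69 (SD, n = 3), and row 2031 read −1.64, −2.65 and −1.64, a mean of −1.98 ± 0.58 (SD, n = 3). In all 8 rows array 2 was the lowest, and every array was past 2-fold. Of these rows, 6 lay in 3 pairs no more than 4 rows apart in the table. Rows 3314 and 3315 were adjacent, with means of −1.82 ± 0.29 and −1.84 ± 0.62 (SD, n = 3 each). Rows 1274 and 1276 had means of −1.66 ± 0.35 and −2.04 ± 0.42 (SD, n = 3 each), and row 1275 between them read −0.78, −1.25 and −0.77. The pair of rows 4345 and 4349, the latter at −1.68 ± 0.40 (SD, n = 3), enclosed 3 rows with means from −0.70 to −0.19.

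**Figure D3:**
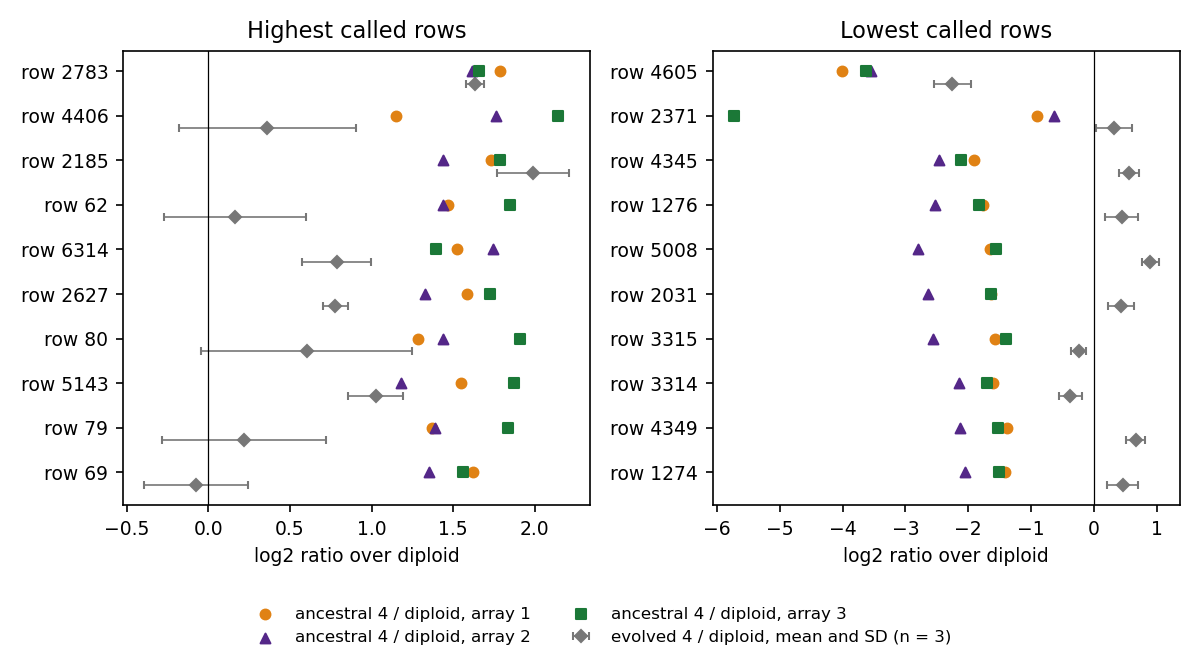
Log2 ratio over diploid (x axis) of the 10 highest and 10 lowest called rows of ancestral 4, with 1 coloured point per array, and the mean and SD over 3 arrays of evolved 4 over diploid (grey) below each. In 8 of the 10 lowest rows array 2 lies furthest left, and the evolved clone is within 2-fold of the diploid in 9 of the 10.

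In the evolved clone most of these extreme rows lay nearer to the diploid level. The difference between ancestral 4 and evolved 4, each over the diploid, was tested in the same limma fit, and 426 of 6135 rows (6.94%) were called for it. All 10 of the lowest rows were among them. They had been chosen as extreme in ancestral 4, so their nearness to 0 elsewhere is a description. Row 4345 was at 0.56 ± 0.16 in evolved 4 over diploid and row 5008 at 0.90 ± 0.13 (SD, n = 3 each). Of the 10 rows, 9 were within 2-fold of the diploid in the evolved clone and 7 had the opposite sign. The exception was row 4605, at −2.25 ± 0.30 (SD, n = 3).

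Arrays that set evolved 4 directly against ancestral 4 gave the same rows another reading. They share the evolved and ancestral clones with the diploid comparisons, so the values are set side by side without a test. Row 4345 was at 2.77 ± 0.25 (SD, n = 3) on the direct arrays, where the difference through the diploid was 2.72. For row 5008 these values were 3.16 ± 0.20 (SD, n = 3) and 2.90, and for row 2031 2.37 ± 0.20 (SD, n = 3) and 2.40. In all 8 rows other than 4605 and 2371 both readings lay within 0.5 of each other. Row 4605 did not close in this way. Through the diploid it was higher in the evolved clone, by 1.47, whereas on the direct arrays it was lower, at −3.30 ± 1.41 (SD, n = 3). Row 2371 was at −0.20 on the 2 direct arrays with a value, where the difference through the diploid was 2.74.

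The highest rows were less uniform in the evolved clone. Of the 10, 4 were called for the difference between the tetraploids, rows 4406, 62, 79 and 69. Row 2783 was at 1.63 ± 0.053 (SD, n = 3) in evolved 4 over diploid, and its difference of 0.05 from ancestral 4 did not pass (adjusted p in limma 0.68). Row 2185 was at 1.99 ± 0.22 (SD, n = 3) and row 5143 at 1.02 ± 0.17 (SD, n = 3). In these 3 rows evolved 4 remained past 2-fold over the diploid, while in the other 7 its mean lay between −0.07 and 0.78. In the direct arrays the 10 rows lay between −0.92 and 0.38. Both readings lay within 0.5 of each other in only 5 of these 10 rows, and gaps reached 1.04, for row 69. Rows 4406, 62, 79 and 69 were under 2-fold on the direct arrays, at −0.43 ± 0.86, −0.48 ± 0.31, −0.66 ± 0.48 and −0.54 ± 0.37 (SD, n = 3 each).

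The called rows as a whole showed the same contrast, as a description only. They were selected as extreme in ancestral 4 over diploid, so smaller ratios elsewhere follow in part from that selection. The other line 4 groups also share clones with it. In evolved 4 over diploid the 77 rows called higher had a median of 0.34 and 15 of them were still past 2-fold, while 127 measured rows called lower had a median of 0.12 and 7 of them were still past 2-fold down. In evolved 4 over ancestral 4 the medians were −0.26 and 1.03. In the 7 other lines, which share no culture with ancestral 4 over diploid, rows called higher had medians from −0.096 to 0.243 and rows called lower from −0.136 to 0.256. Without 14 rows of a set described below, the rows called higher had medians of 0.151 in line 2, 0.083 in line 6 and 0.49 in evolved 4 over diploid, in place of 0.243, 0.160 and 0.34. The rows called lower had their highest medians among those lines in line 5, at 0.256 with 105 of 127 rows above 0, and in line 7, at 0.173 with 95 of 129 above 0. In line 8 the direction was the other way, with 41 of 132 above 0 and a median of −0.136.

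A set of 28 rows near the top of the table stood apart in ancestral 4. They were the rows between 29 and 80 whose listed names carry the strand letter C, other than rows 64 and 75, and were delimited after their values had been seen, so the counts below are a description. Of 26 tested, 23 were above 0 and 14 were called higher, against 1.25% of all rows, and none was called lower. Their median log2 ratio was 0.95, 0.83 and 1.21 on arrays 1, 2 and 3, or 1.04 over row means. Single tested members ranged from −0.16 for row 45 to 1.58 for row 62, and row 53, untested, read 2.94 on its only array. Row 62 read 1.47, 1.44 and 1.85, row 33 read 1.28, 1.69 and 1.24, and row 29 read 1.26, 0.98 and 1.49. The set was not even, since 7 neighbouring members from row 42 to row 51 had means of 0.41 or less.

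Rows interleaved with them lay mostly on the other side of 0. The 22 rows of strand letter W in the same stretch had medians of −0.27, −0.42 and −0.30 on arrays 1 to 3, with 7 of the 22 above 0. Of them 2 were called lower (9.09%, beside 2.15% of all rows) and none higher (beside 1.25%). The 2 rows of letter C that were not of the set had means of −0.13 and 0.20. The next 24 rows of letter C listed on the same chromosome, chromosome I, had a median of −0.058 and no calls. In evolved 4 over diploid the set had a median of 0.27, and in evolved 4 over ancestral 4 of −0.013. Among lines that share no culture with these arrays, the set was at 0.50 in line 2, 0.51 in line 6 and −0.58 in line 8, with 26, 28 and 0 of 28 rows above 0, and in lines 1, 3, 5 and 7 it was at −0.14, −0.10, 0.14 and 0.012. The 22 interleaved rows were at 0.061, 0.17 and 0.19 in lines 2, 6 and 8. Which genes these rows measured is not known here.

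**Figure D4:**
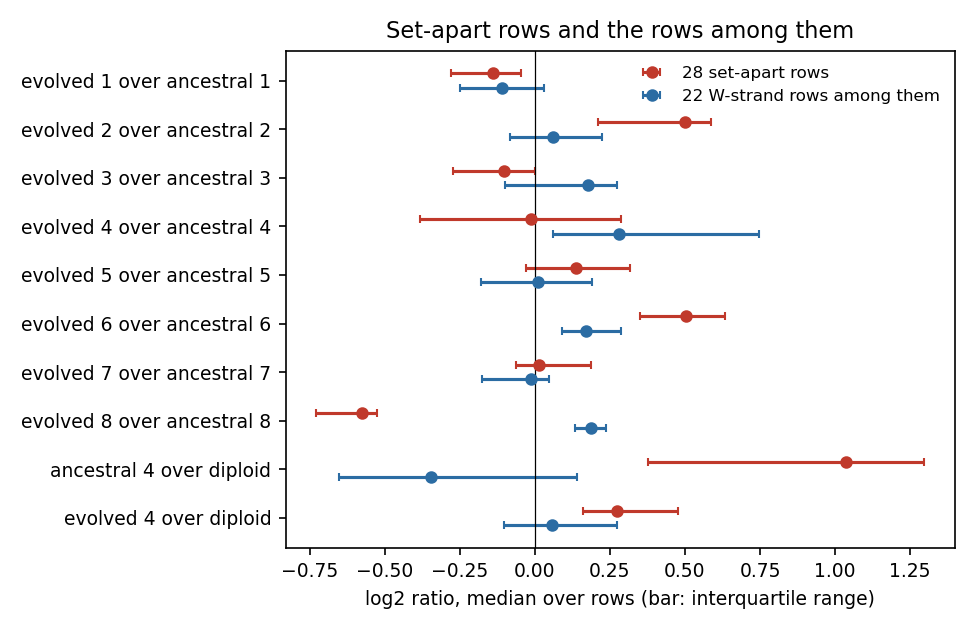
Median log2 ratio (x axis, with the interquartile range over rows as a bar) of the 28 set-apart rows (red) and of the 22 rows of strand letter W among them (blue) in the 10 groups. The set lies at 1.04 in ancestral 4 over diploid, above any other group, and at −0.58 in line 8.

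A broader and shallower shift lay at the end of the table. The 435 rows of strand letter C listed on the right arm of chromosome XV and on chromosome XVI had medians of −0.22, −0.25 and −0.25 on the 3 arrays, 0.211 ± 0.013 (SD, n = 3) below the median of all rows. The 465 rows of letter W listed on the same arms differed from that median by 0.0067 ± 0.026 (SD, n = 3). The shift deepened towards the end. It was −0.13 ± 0.068 for 194 rows listed on the right arm of XV, −0.21 ± 0.029 for 145 rows on the left arm of XVI and −0.35 ± 0.078 for 96 rows on its right arm (SD over arrays, n = 3 each). On that last arm 80.4% of tested rows were below 0. Of 427 tested rows, 4 (0.937%) were called higher and 13 (3.04%) lower, beside 1.25% and 2.15% of all rows, so the shift lay mostly in rows under 2-fold.

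The same 435 rows were near the overall median in evolved 4 over diploid, at −0.055 ± 0.0032, and above it in evolved 4 over ancestral 4, by 0.119 ± 0.0053 (SD, n = 3 each). In 3 lines that share no culture with these arrays they lay above the median of all rows, by 0.190 ± 0.010 in line 2, 0.223 ± 0.012 in line 6 and 0.191 ± 0.012 in line 8 (SD, n = 3 each), and in lines 1, 3, 5 and 7 within 0.02 of it. Among the other 61 combinations of listed arm and strand letter in ancestral 4 over diploid, with the 28 set-apart rows left out, the shift ran from −0.34 for 35 rows of letter W listed on the left arm of chromosome I to 0.24 for 53 rows of letter C listed on the right arm of XI. With the set kept in, the 40 rows of letter C listed on the left arm of chromosome I lay 0.50 ± 0.19 (SD, n = 3) above the median of all rows. The listed arm and letter serve here only to delimit rows. The letter is part of the name and not a place, since rows of both letters are interleaved. The chromosome a row came from was not tested.

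**Figure D5:**
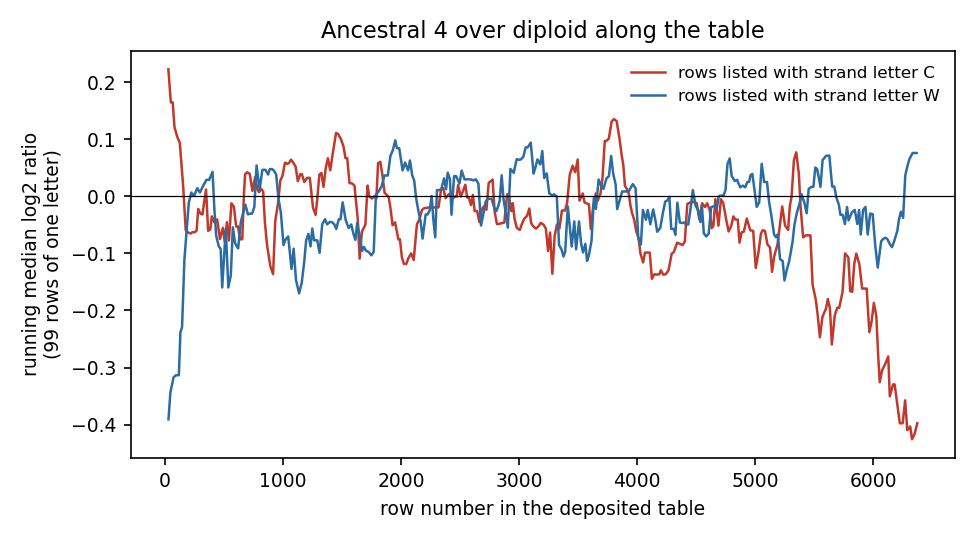
Running median of the mean log2 ratio of ancestral 4 over diploid (y axis, 99 rows of one strand letter) against row number in the deposited table (x axis), for rows listed with letter C (red) and letter W (blue). The letters part at both ends, with C higher at the start and falling to −0.43 near row 6327 at the end.

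Lists of genes picked for this tissue and treatment are given only by their listed names, and those names were not borne out. Of 131 tested rows listed as ribosomal proteins, none was called higher and 2 lower, with a median of 0.0057. For chaperones and heat shock proteins, 1 of 50 was called higher and 1 lower, with a median of −0.13, and for spindle and kinetochore genes 1 of 50 each way, with a median of 0.17. Rows listed as ribosome biogenesis factors, proteasome subunits, histones and cell wall and surface genes had no calls among 98, 33, 9 and 48 tested. Stress and reserve carbohydrate genes had 1 higher and 3 lower calls of 53, nuclear oxidative phosphorylation genes 3 lower of 36, and cyclins 1 higher of 16. Mating-type and haploid-specific genes had 1 call each way of 30, TORC1 and Sch9 pathway genes 1 each way of 20, and genes altered in the strain background no call of 6. The single higher calls listed as a chaperone, a spindle gene and a cyclin were rows 33, 80 and 70 of the set-apart rows. Over all rows tested the shares were 1.25% higher and 2.15% lower.

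Rows listed as mitochondrial transcripts were an exception in how they varied together. These RNAs are read from the mitochondrial genome and code for core subunits of the respiratory chain. Their mean pairwise correlation over 30 arrays was 0.333 for 15 rows, but they also lie together at the start of the table, so name and place cannot be told apart. In ancestral 4 over diploid they had medians of −0.16, −0.29 and −0.27 on arrays 1 to 3, and 0 of 15 were called, against 3.4% of all rows. The 4 genes that the study names for this comparison, HSP42, SSA4, RPL39 and RPL43A, were chosen on these samples and are no independent evidence of a direction. Of their listed rows 3 were tested and 0 called, with a median of −0.48 and a mean pairwise correlation of 0.40, over too few rows to bear out a name.

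Missing spots were more frequent in this group as a whole than in any other, with 648 empty cells against at most 564. They numbered 242, 200 and 206 on arrays 1 to 3, while array 2 of line 1 alone held 282. Of the 84 cells of the whole series that stood at the floor of −6.64, 43 were in this group, on 42 rows. Of those rows 41 had the floor on 1 array and 1 on 2 arrays, and 34 were left untested because fewer than 2 values remained. Only 16 of the 42 rows kept a value on another array. These 24 values had a median of −0.46 and ran from −2.18 to 0.98, with 4 of them below −1, and the other 26 rows had none. None of the 42 rows was at the floor in evolved 4 over diploid or in evolved 4 over ancestral 4.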

How the data were processed

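The deposited values were log2 ratios of the culture named first over the second. Per the authors' methods, RNA was hybridised to spotted oligonucleotide arrays, spots of low intensity were left out, and log2 values were LOWESS-normalized within each array in GeneSpring GX, which removes any shift common to all genes. The brightness of single spots over background is unknown, and the number of arrays limits the precision. Cells at the floor of −6.64 were set to missing. All 30 arrays were fitted with 1 coefficient per group in limma 3.58.1 (R 4.3.3, lmFit and eBayes), and a row needed values on at least 2 of 3 arrays. Calls had a Benjamini-Hochberg adjusted p under 0.05 and a mean of at least 2-fold. The rule for named rows was to take the 10 highest and 10 lowest called rows with 3 values of one sign. Medians and figures used Python 3.11.15. The methods' t-test is assumed, since the study's methods give a threshold without naming the test. The scripts were tested on simulated data. Alternatives covered scaling, floor cells, missing values, the fold minimum, the test, the variance prior, the replicate number as a block and each array left out. The lists, rules and stretches of the table were chosen with earlier results of these data known, and the 28-row set, its removal and the shift at the end of the table after seeing the values. Replicate numbers did not pair the arrays.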

Additional observations from a re-analysis of the deposited data

Results flagged for a closer look

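For 14 of the 20 extreme rows, the ratio to the diploid differed between the tetraploids by the limma contrast of ancestral 4 minus evolved 4, each over diploid (n = 3 arrays each), with at least 2-fold and an adjusted p under 0.05. Among the rows higher in ancestral 4, the difference on the log2 scale was 1.32 for row 4406, 1.42 for row 62, 1.31 for row 79 and 1.59 for row 69. Among the rows lower in ancestral 4, it was −2.90 for row 5008, −2.74 for row 2371, −2.72 for row 4345, −2.48 for row 1276, −2.40 for row 2031, −2.34 for row 4349, −2.11 for row 1274, −1.60 for row 3315, −1.47 for row 4605 and −1.44 for row 3314. The adjusted p in limma ran up to 0.0062, for row 4406. The rows were chosen as extreme in ancestral 4, and 426 of 6135 rows (6.94%) were called for the same difference. On the direct arrays of evolved 4 over ancestral 4, rows 4406, 62, 79 and 69 read −0.43, −0.48, −0.66 and −0.54, all under 2-fold. Row 2371 rests on 1 array, and row 4605 had the opposite direction on the direct arrays.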

How the results depend on the processing

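The main settings gave 209 calls, 36.8% of them higher, and a median absolute log2 ratio of 0.299. Quantile normalization gave 50 calls, 62.0% higher, and 0.209, since it gives all arrays one spread by construction. With no fold minimum there were 4011 calls, 45.4% higher, and with a minimum of 1.5-fold 1112, 45.0% higher. The methods' t-test gave 58 calls unadjusted, 53.4% higher, and 41 after Benjamini-Hochberg adjustment, 48.8% higher. Leaving out each array gave 199 to 242 calls, 33.7% to 40.5% higher, and a median absolute log2 ratio of 0.293 to 0.309. In all, 33 of 44 such values, those without an array included, stayed near the main value, and 11 moved. Among the 33, counts of calls moved by less than 1.5 times, shares stayed inside the Wilson interval and median sizes within the SD. The 11 came from quantile normalization, the other fold minimums and the t-tests. The 33 included 204 calls, 42.6% higher, with each array centred on its median and 195 calls without the 28 set-apart rows. Under the replicate block there were again 209 calls, the same rows, and 36.8% were higher. Same-numbered arrays of ancestral 4 over diploid and the other line 4 groups had correlations of their deviations from −0.047 to 0.086, none of 6 over 0.1, so the numbers do not pair them. The 20 named rows were followed only under settings that kept limma and the 2-fold minimum. Whether they keep their calls under the methods' t-test, which gave 58 calls in place of 209, was not tested. Of 240 values for these rows under the limma settings, 238 kept their direction and call. The other 2, both for row 2371, kept the direction without the call. They were −0.77 without array 3 and −2.42 (adjusted p 0.092) with the group fitted alone in limma. No value reversed.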
